A study of Homo sapiens with 6 samples.

Results

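The genes of cholesterol synthesis, its regulation and sterol export were followed in MDA-MB-231 cells that bound FABP4 and in MDA-MB-231 cells that did not. The members are 30 genes, each matched by its exact symbol among the 58051 genes of the expression table, and all 30 were found. They fall into 7 genes of the mevalonate arm, 11 genes of the squalene and sterol arm, 5 genes that regulate the SREBP transcription factors, and 7 genes of sterol trafficking, esterification and export.

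MDA-MB-231 is an established human breast cancer line that lacks the oestrogen receptor, and FABP4 is a small fatty acid carrier secreted by fat cells. Wild-type cells of this line were stained with recombinant human FABP4 coupled to the dye FITC and sorted by flow cytometry into FABP4 binding cells (3 libraries) and FABP4 non-binding cells (3 libraries). Both groups went through the same staining and sorting, so both had been exposed to added FABP4. Total RNA was depleted of ribosomal RNA and primed at random. Nothing in the labels tells whether the replicates came from different cultures, and the p-values below therefore reflect library-to-library spread that could be technical. Values are TPM, a length-scaled share of all transcripts in a library, which keep no sequencing depth, so the depth is unknown. In sorted bulk samples, fewer cells of a type and less RNA per cell cannot be told apart.

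Cells make cholesterol from acetyl-CoA by way of mevalonate, farnesyl diphosphate, squalene and lanosterol. When sterols in the endoplasmic reticulum run low, SCAP escorts the SREBP precursors to the Golgi, where they are cut to release the active transcription factors, and the INSIG proteins hold SCAP back when sterols are plentiful. Cells gain cholesterol from lipoproteins, release it from lysosomes through the NPC proteins, store it as esters made by SOAT1, and pass it out through ABCA1 and ABCG1.

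Upstream sequences of 3 members that rose are shown here because SREBP proteins act at short sterol regulatory elements and because both SREBF genes contain a microRNA. The stretches below come from RefSeq (GRCh38.p14) and end where the first exon of the gene begins in GENCODE release 29. Capitals mark matches on either strand to TCACNCNAC, a form of the sterol regulatory element, to CCAAT, the NF-Y box, and to GGGCGG, the Sp1 box, and none of the matches shown overlap each other.
SREBF1 (chr17:17837003-17837236, minus strand): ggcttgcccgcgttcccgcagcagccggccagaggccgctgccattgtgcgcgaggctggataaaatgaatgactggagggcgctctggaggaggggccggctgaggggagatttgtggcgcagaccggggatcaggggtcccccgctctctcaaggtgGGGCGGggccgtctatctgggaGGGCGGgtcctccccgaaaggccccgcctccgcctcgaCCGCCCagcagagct
SREBF2 (chr22:41832855-41833078, plus strand): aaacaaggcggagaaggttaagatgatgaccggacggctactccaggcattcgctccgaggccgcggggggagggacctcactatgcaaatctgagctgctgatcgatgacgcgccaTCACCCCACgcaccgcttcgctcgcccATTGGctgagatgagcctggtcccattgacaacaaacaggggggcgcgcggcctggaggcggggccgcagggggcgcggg
FDPS (chr1:155308616-155308747, plus strand): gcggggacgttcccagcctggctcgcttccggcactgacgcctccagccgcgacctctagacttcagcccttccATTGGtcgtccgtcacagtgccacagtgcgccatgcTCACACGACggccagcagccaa

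The SREBF2 stretch held TCACCCCAC with its first base at -133 from the RefSeq start and an inverted NF-Y box at -106. The FDPS stretch held TCACACGAC at -140 and an inverted NF-Y box at -176. The SREBF1 stretch held 3 Sp1 boxes and neither of the other motifs. The search covered the 250 bases before each start in 25 of the 30 members, in 32 windows, since some genes have several starts. TCACNCNAC was found for 3 of these 25 members (FDPS, HSD17B7 and SREBF2), in 9.38% of their windows against 2.02% of all 35116 windows in the table. CCAAT was found for 18 members, in 62.5% of their windows against 32.0% of all windows and 32.7% of the windows of protein-coding genes. GGGCGG was found for 24 members, in 93.8% of their windows against 42.6% of all windows and 53.7% of those of protein-coding genes. Of the members that rose, 5 were in this search, and the 3 printed are those with 100 bases or more before the first exon. SCAP and CYP51A1, which were searched but not printed, matched the Sp1 box and neither of the other motifs. A match describes letters and does not show a bound site.

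SREBF1 and SREBF2 each carry a member of the miR-33 family in an intron, known to repress ABCA1. The mature sequences are printed with the seed, bases 2 to 8, in capitals (RefSeq, GRCh38.p14).
hsa-miR-33b-5p (in SREBF1, chr17:17813897-17813916, minus strand): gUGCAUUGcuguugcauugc
hsa-miR-33a-5p (in SREBF2, chr22:41900949-41900969, plus strand): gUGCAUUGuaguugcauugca
Both share the seed UGCAUUG. The libraries did not measure mature microRNA. The MIR33A row was listed at 0 in all 6 libraries, and the MIR33B row at 0 in all libraries except non-binding replicate 3, where it stood at 9.20 TPM.

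All 30 members reached 1 TPM in at least 3 libraries and were tested. In binding cells 7 members were higher and none lower than in non-binding cells (limma on log2(TPM + 1), Benjamini-Hochberg adjusted p at 0.05 over 15574 genes), which is 23.3% of the members. Among all genes tested, 19.6% were higher and 7.12% lower. At this threshold the members' share of rises is thus close to that background. The 7 were the regulators SREBF1, SREBF2 and SCAP, the enzymes FDPS, FDFT1 and CYP51A1, and the lipoprotein receptor SCARB1. At an unadjusted p under 0.05, 13 of the 30 members were higher and none lower, beside 5142 higher and 1821 lower among the 15574 genes. For 17 of the 30 members every binding library lay above every non-binding library, and for none did every binding library lie below. Of the 15574 genes 6009 (38.6%) lay above and 2117 (13.6%) below in this way. The log2 change was positive for 28 of the 30 members, beside 10600 of the 15574 genes, with a median of 0.46 beside 0.36 for all genes tested.

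That median of all genes matters for the reading of each member, since TPM of most genes stood higher in binding cells. When every library was set to a common median, the median of all genes fell to 0.04, the members' median fell to 0.14 with 20 members still positive, and 2 members remained higher (SREBF1 and SCARB1), beside 6.18% of all genes higher and 12.1% lower. With quantile normalization, 1 member remained higher (SREBF1), beside 7.69% of all genes higher and 8% lower. Without non-binding replicate 2 or without non-binding replicate 3, no member passed the threshold, beside 1.8% and 0.372% of all genes higher. Without binding replicate 3, 1 member passed (SREBF1), beside 9.98% of all genes higher, and without non-binding replicate 1, 2 members passed (SREBF1 and SCARB1), beside 9.16%.

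**Figure D1:**
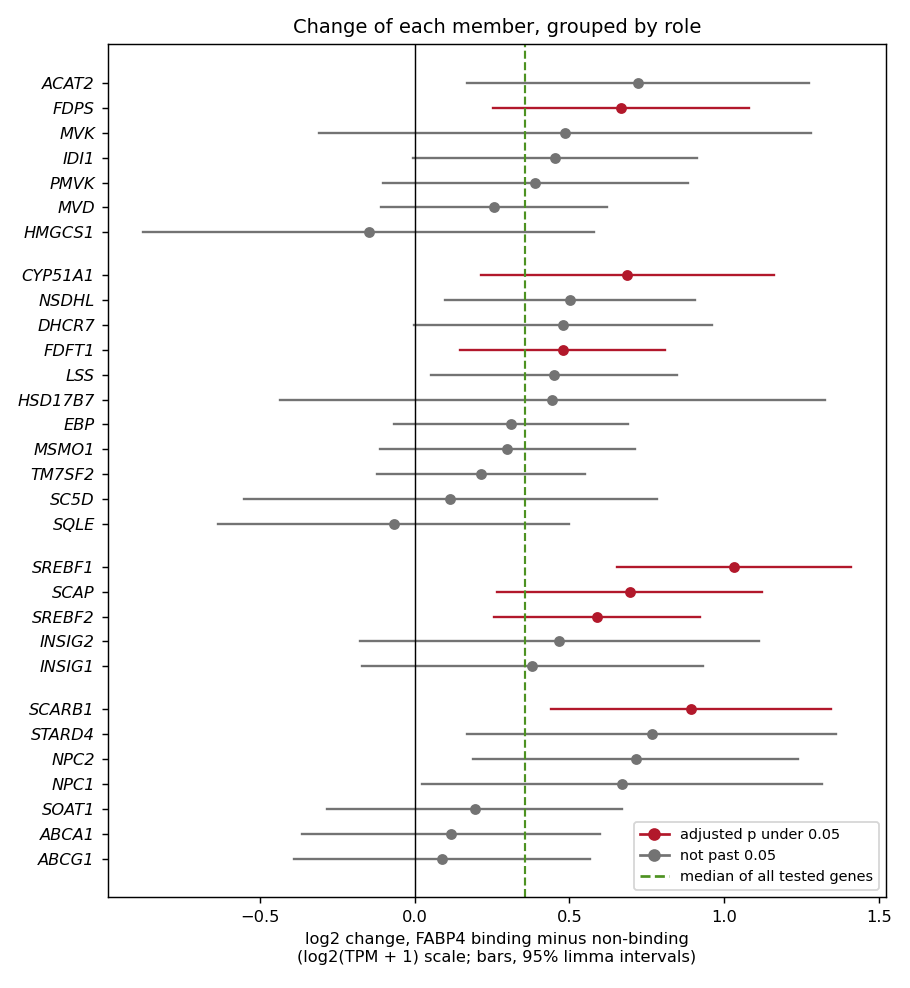
Log2 change (FABP4 binding minus non-binding, on log2(TPM + 1)) of each of the 30 members with its 95% interval from limma, grouped by role, beside the median of all genes tested at 0.36. The 7 members past the threshold all lie to the right of 0, SREBF1 farthest at 1.03, and HMGCS1 and SQLE are the members with values below 0. Under a common median MVD, TM7SF2, MSMO1, EBP, SC5D, SOAT1, ABCA1 and ABCG1 also fall below 0.

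Of the 5 regulators 3 rose (60%, beside 19.6% of all genes), SREBF1, SREBF2 and SCAP, of which SREBF1 alone passed under a common median or quantile normalization. The summed level of the 5 was 222 ± 31.7 TPM in binding cells and 131 ± 7.71 TPM in non-binding cells (SD, n = 3 each), a ratio of 1.69. Such sums are not corrected for the higher TPM of most genes in binding cells. The median log2 change of the 5 was 0.59, beside 0.36 for all genes tested. Under a common median these were 0.27 and 0.04. SREBF1 (ENSG00000072310, hg38 chromosome 17, 17810399 to 17837002, minus strand), whose product is best known for driving fatty acid synthesis genes, had 98.7, 71.0 and 71.8 TPM in binding replicates 1, 2 and 3, against 38.1, 36.8 and 40.3 TPM in non-binding replicates 1, 2 and 3. The lowest binding library thus stood well above the highest non-binding one. SREBF1 rose by 1.03 ± 0.16 on the log2 scale (SE, limma adjusted p = 0.0131), a 2.10-fold ratio of means, and its change was above that of 94.7% of all genes tested. Relative to the median of all genes the rise was 0.68. It kept its call under a common median (log2 change 0.71, limma adjusted p = 0.0165) and under quantile normalization (0.83, adjusted p = 0.0183), and lost it without non-binding replicate 2 (adjusted p = 0.0514) and without non-binding replicate 3 (adjusted p = 0.0542).

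SREBF2 (ENSG00000198911, hg38 chromosome 22, 41833079 to 41907308, plus strand), the main activator of cholesterol synthesis genes, had 71.4, 58.7 and 63.2 TPM in binding libraries, against 43.9, 38.0 and 45.6 TPM in non-binding libraries. The groups did not overlap. SREBF2 rose by 0.59 ± 0.15 (log2, SE, limma adjusted p = 0.0270), 0.23 above the median of all genes, and under a common median its log2 change of 0.27 did not pass (adjusted p = 0.131). The ratio of SREBF1 to SREBF2 within a library does not depend on scaling by a single factor per library. It was 1.38, 1.21 and 1.14 in binding libraries and 0.869, 0.969 and 0.886 in non-binding libraries, so SREBF1 was the more abundant of the pair in every binding library and the less abundant in every non-binding library. The mean ratio was 1.24 ± 0.126 in binding cells and 0.908 ± 0.0540 in non-binding cells (SD, n = 3 each). The exact two-sided permutation p was 0.1, the smallest that 3 against 3 allows, and 0.5 after adjustment over the 5 ratios compared.

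SCAP (ENSG00000114650, hg38 chromosome 3, 47413694 to 47477126, minus strand), the escort of the SREBP precursors, had 61.5, 39.3 and 44.7 TPM in binding libraries, against 28.8, 27.6 and 31.0 TPM in non-binding libraries. SCAP rose by 0.69 ± 0.19 (log2, SE, limma adjusted p = 0.0330), and its change of 0.38 under a common median did not pass (adjusted p = 0.0989). Its groups did not overlap, although binding replicate 1 was far above the other binding libraries. INSIG1, which retains SCAP and is itself a classic SREBP target, had 14.4, 20.9 and 20.5 TPM in binding libraries, against 18.4, 10.7 and 13.5 TPM in non-binding libraries, and the groups overlapped (limma adjusted p = 0.247). INSIG2, a second retention protein that is less dependent on SREBP, averaged 9.90 ± 2.12 TPM in binding cells and 7.05 ± 2.48 TPM in non-binding cells (SD, n = 3 each, limma adjusted p = 0.224). The ratios of SCAP to INSIG1 and of INSIG1 to INSIG2 overlapped between the groups (exact permutation p = 0.6 and 0.8, both 1 after adjustment over the 5 ratios).

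**Figure D2:**
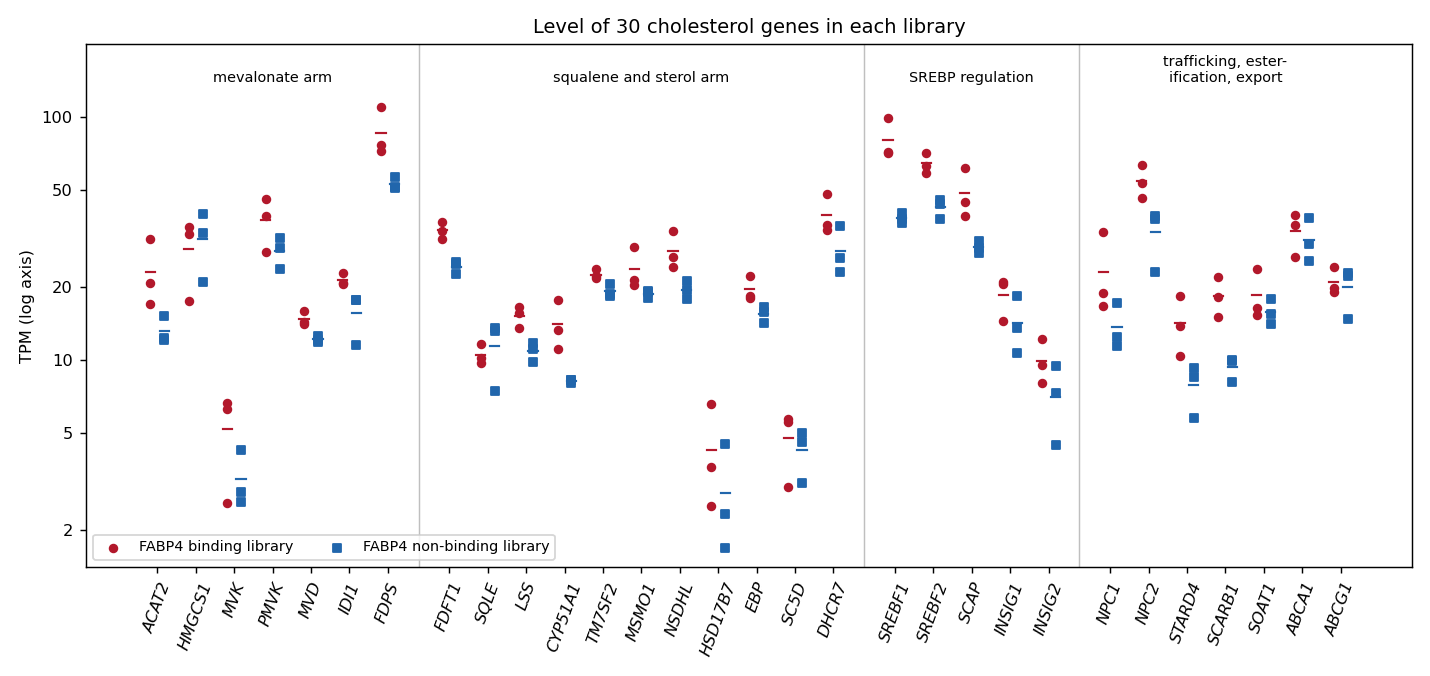
TPM of each of the 30 members in every library on a log axis, by role, with the 3 FABP4 binding libraries (circles) left of the 3 non-binding libraries (squares) and a short line at each mean. FDPS, SREBF1 and SREBF2 are the most abundant members in binding cells, and HSD17B7 is the lowest in both groups.

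In the mevalonate arm 1 of 7 genes rose (14.3%, beside 19.6% of all genes) and none fell. The median log2 change was 0.45, beside 0.36 for all genes tested. Under a common median it was 0.13, beside 0.04 for all genes, and no gene of the arm passed. The summed level of these 7 genes was 217 ± 27.3 TPM in binding cells and 157 ± 18.5 TPM in non-binding cells (SD, n = 3 each), a ratio of 1.38. The gene that rose was FDPS (ENSG00000160752, hg38 chromosome 1, 155308748 to 155320666, plus strand), which makes farnesyl diphosphate, the last intermediate shared with protein prenylation. FDPS was the most abundant member in both groups, with 109.7, 72.3 and 76.4 TPM in binding libraries, against 56.5, 50.9 and 51.5 TPM in non-binding libraries. The groups did not overlap, and FDPS rose by 0.67 ± 0.18 (log2, SE, limma adjusted p = 0.0330). Its change of 0.35 under a common median did not pass (adjusted p = 0.107). The table listed several FDPS pseudogenes, of which FDPSP6 averaged 1.15 TPM in binding cells and was listed at 0 in non-binding cells. How reads that match both a gene and its copies were counted is not given in the sources used here.

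HMGCS1, the synthase that makes HMG-CoA and a standard SREBP target, had 17.4, 32.9 and 35.2 TPM in binding libraries, against 33.5, 21.0 and 39.8 TPM in non-binding libraries. The groups overlapped, with binding replicate 1 the lowest of all 6 libraries, and the log2 change was -0.15 with a 95% interval of -0.88 to 0.58 (limma adjusted p = 0.731). ACAT2, the thiolase that starts the pathway by joining acetyl-CoA units, had 31.5, 20.6 and 17.0 TPM in binding libraries, against 15.2, 12.3 and 12.1 TPM in non-binding libraries. Its groups did not overlap, yet its log2 change of 0.72 just missed the threshold (limma adjusted p = 0.0561). Under a common median the change was 0.40 (adjusted p = 0.181). ACAT2 also overlaps the antisense gene TCP1 over 397 exon bases, and TCP1 averaged 280 TPM in binding cells and 388 TPM in non-binding cells. Whether the reads were counted by strand is not given in the sources used here.

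The remaining mevalonate genes did not pass the threshold. MVK, the kinase that phosphorylates mevalonate, averaged 5.19 ± 2.27 TPM in binding cells and 3.24 ± 0.901 TPM in non-binding cells, and PMVK, the next kinase, averaged 37.7 ± 9.22 TPM in binding cells and 28.1 ± 4.17 TPM in non-binding cells (SD, n = 3 each). MVD, the decarboxylase that forms isopentenyl diphosphate, averaged 14.7 ± 1.01 TPM in binding cells and 12.2 ± 0.335 TPM in non-binding cells, and IDI1, which isomerises that product, averaged 21.4 ± 1.31 TPM in binding cells and 15.6 ± 3.52 TPM in non-binding cells (SD, n = 3 each). For MVD and IDI1 every binding library lay above every non-binding library, whereas MVK and PMVK overlapped. Their limma adjusted p-values lay between 0.116 for IDI1 and 0.300 for MVK.

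In the squalene and sterol arm 2 of 11 genes rose (18.2%, beside 19.6% of all genes) and none fell. The median log2 change was 0.44, beside 0.36 for all genes tested, and under a common median 0.13 beside 0.04. None of the 11 genes passed under a common median or quantile normalization. Their sum was 216 ± 31.1 TPM in binding cells and 163 ± 8.34 TPM in non-binding cells (SD, n = 3 each), a ratio of 1.33. FDFT1 (ENSG00000079459, chromosome 8), the squalene synthase that commits farnesyl diphosphate to sterols, had 36.9, 33.9 and 31.6 TPM in binding libraries, against 22.6, 24.8 and 25.3 TPM in non-binding libraries. FDFT1 rose by 0.48 ± 0.14 (log2, SE, limma adjusted p = 0.0436), 0.12 above the median of all genes. Its groups did not overlap, but it was called in 3 of 14 other settings and its change under a common median was 0.16 (adjusted p = 0.381).

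CYP51A1 (ENSG00000001630, hg38 chromosome 7, 92112151 to 92134803, minus strand), the lanosterol demethylase, had 17.7, 11.1 and 13.3 TPM in binding libraries, against 8.24, 8.06 and 8.23 TPM in non-binding libraries. The non-binding libraries were nearly equal, with a coefficient of variation of 1.25% beside 23.8% in binding libraries. CYP51A1 rose by 0.69 ± 0.21 (log2, SE, limma adjusted p = 0.0428), and it was called in 5 of 14 other settings. Among the settings that lost the call were the fit without binding replicate 1 and a common median (log2 change 0.37, adjusted p = 0.141). Its pseudogene CYP51A1P2 averaged 1.15 TPM in binding cells and 0.374 TPM in non-binding cells.

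SQLE, the squalene epoxidase and a rate-limiting sterol enzyme, had 11.6, 9.69 and 10.2 TPM in binding libraries, against 13.2, 7.43 and 13.5 TPM in non-binding libraries. Every binding value lay within the range of the non-binding libraries, and the log2 change was -0.07 with a 95% interval of -0.64 to 0.50 (limma adjusted p = 0.842). The interval thus leaves room for a change of either sign.

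The other 8 genes of this arm had positive log2 changes that did not pass the threshold, between 0.12 for SC5D and 0.50 for NSDHL. LSS, which folds epoxidised squalene into lanosterol, averaged 15.2 ± 1.58 TPM in binding cells and 10.9 ± 0.978 TPM in non-binding cells (SD, n = 3 each), without overlap (limma adjusted p = 0.0811). NSDHL, one of the enzymes that strip methyl groups from the sterol ring, averaged 28.2 ± 5.01 TPM in binding cells and 19.5 ± 1.73 TPM in non-binding cells (SD, n = 3 each), also without overlap (limma adjusted p = 0.0646). MSMO1, the methyl oxidase of the same step, and TM7SF2, a sterol reductase, were likewise higher in every binding library than in any non-binding library, as was EBP, the sterol isomerase. Their log2 changes were 0.30 for MSMO1, 0.21 for TM7SF2 and 0.31 for EBP, and all 3 turned negative under a common median and under quantile normalization.

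HSD17B7, the ketoreductase that completes demethylation, was the lowest member, at 4.25 ± 2.13 TPM in binding cells and 2.83 ± 1.48 TPM in non-binding cells (SD, n = 3 each), with overlapping groups. SC5D, a desaturase of the late pathway, was almost as low, at 4.76 ± 1.53 TPM in binding cells and 4.24 ± 1.01 TPM in non-binding cells (SD, n = 3 each). DHCR7, the final reductase of its branch, had 48.1, 36.1 and 34.4 TPM in binding libraries, against 35.5, 26.2 and 22.9 TPM in non-binding libraries. The highest non-binding DHCR7 value lay between the 2 lower binding values, and the gene did not pass (log2 change 0.48, limma adjusted p = 0.112).

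**Figure D3:**
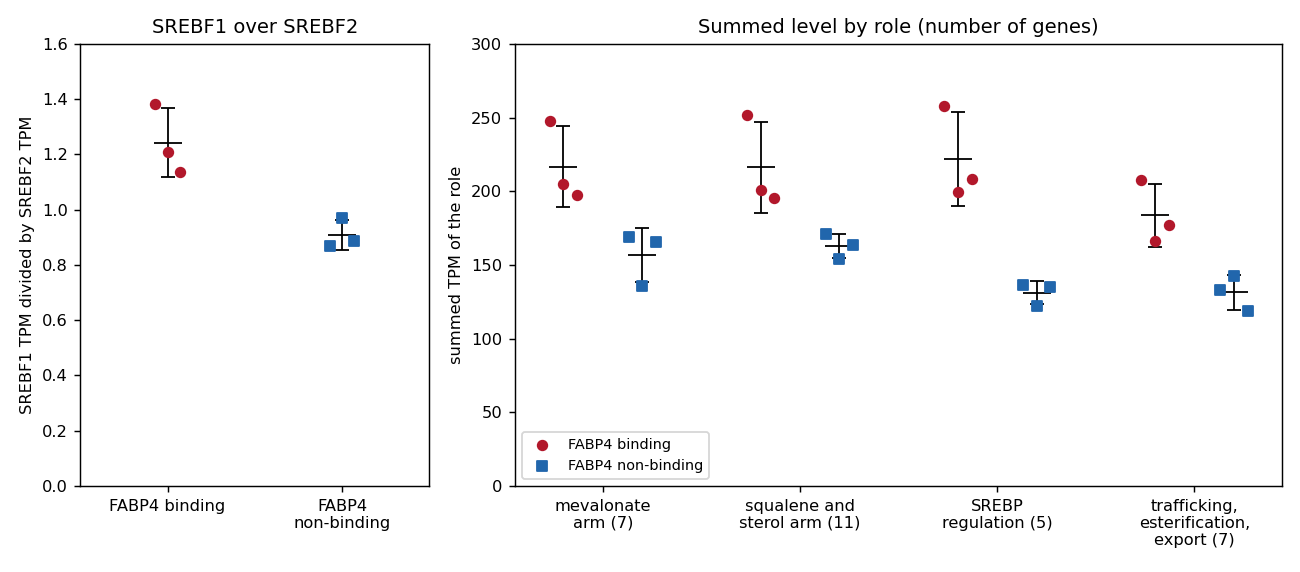
Ratio of SREBF1 to SREBF2 in each library and summed TPM of the members by role, with points for libraries, horizontal lines for group means and bars for 1 SD, FABP4 binding left of non-binding. The ratio is above 1 in the 3 binding libraries and below 1 in the 3 non-binding libraries, and the sum of the SREBP regulators separates the groups by the largest ratio of the 4 roles, 1.69.

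Among the 7 genes of trafficking, esterification and export 1 rose (14.3%, beside 19.6% of all genes) and none fell. The median log2 change was 0.67, beside 0.36 for all genes tested, and under a common median 0.35 beside 0.04. SCARB1 (ENSG00000073060, hg38 chromosome 12, 124776856 to 124882668, minus strand) encodes the receptor through which cells exchange cholesterol with high-density lipoprotein. It had 21.9, 15.0 and 18.1 TPM in binding libraries, against 10.01, 9.94 and 8.10 TPM in non-binding libraries. Each binding value was above each non-binding value, and SCARB1 rose by 0.89 ± 0.20 (log2, SE, limma adjusted p = 0.0215), 0.53 above the median of all genes. The call held under a common median (log2 change 0.57, adjusted p = 0.0481) and was missed under quantile normalization (0.57, adjusted p = 0.0544). It was also missed without binding replicate 3 (adjusted p = 0.0522), without non-binding replicate 2 (0.0623) and without non-binding replicate 3 (0.0704).

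The lysosomal exporters and the sterol carrier STARD4 had larger log2 changes than the median member without passing the threshold. NPC2, the soluble lysosomal protein that hands cholesterol to NPC1, had 63.5, 53.7 and 46.4 TPM in binding libraries, against 38.1, 39.3 and 23.1 TPM in non-binding libraries. The groups did not overlap and the change of 0.71 missed the threshold by a small margin (limma adjusted p = 0.0510). Under a common median the NPC2 change was 0.40 (adjusted p = 0.231). STARD4, a cytosolic sterol transfer protein, had 18.3, 10.4 and 13.9 TPM in binding libraries, against 9.28, 5.78 and 8.54 TPM in non-binding libraries (log2 change 0.77, limma adjusted p = 0.0586). The STARD4 change under a common median was 0.45 (adjusted p = 0.179). NPC1, the membrane partner of NPC2, had 33.7, 16.7 and 18.9 TPM in binding libraries, against 17.2, 12.4 and 11.4 TPM in non-binding libraries, and here the groups overlapped (log2 change 0.67, limma adjusted p = 0.103). The ratio of NPC1 to NPC2 was 0.416 ± 0.110 in binding cells and 0.421 ± 0.0935 in non-binding cells (SD, n = 3 each, exact permutation p = 0.9, and 1 after adjustment over the 5 ratios).

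The export pumps showed no change that the spread of the libraries could resolve. ABCA1, which loads cholesterol onto lipid-poor apolipoproteins, had 26.6, 35.9 and 39.5 TPM in binding libraries, against 25.6, 38.3 and 29.9 TPM in non-binding libraries. Its log2 change was 0.12 with a 95% interval of -0.37 to 0.60 (limma adjusted p = 0.682). ABCG1, which passes sterol to high-density lipoprotein, had 19.9, 19.0 and 24.1 TPM in binding libraries, against 14.8, 22.9 and 22.1 TPM in non-binding libraries, with a log2 change of 0.09 and an interval of -0.39 to 0.57 (limma adjusted p = 0.754). Both pumps overlapped between the groups, and both log2 changes turned negative under a common median, to -0.20 for ABCA1 and -0.23 for ABCG1. SOAT1, which stores cholesterol as esters, averaged 18.5 ± 4.59 TPM in binding cells and 15.8 ± 1.88 TPM in non-binding cells (SD, n = 3 each), with a log2 change of 0.19 that turned to -0.12 under a common median (limma adjusted p = 0.486 as deposited). The test of ABCA1 against ABCG1 within libraries gave ratios of 1.62 ± 0.276 in binding cells and 1.59 ± 0.204 in non-binding cells (SD, n = 3 each, exact permutation p = 1).

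**Figure D4:**
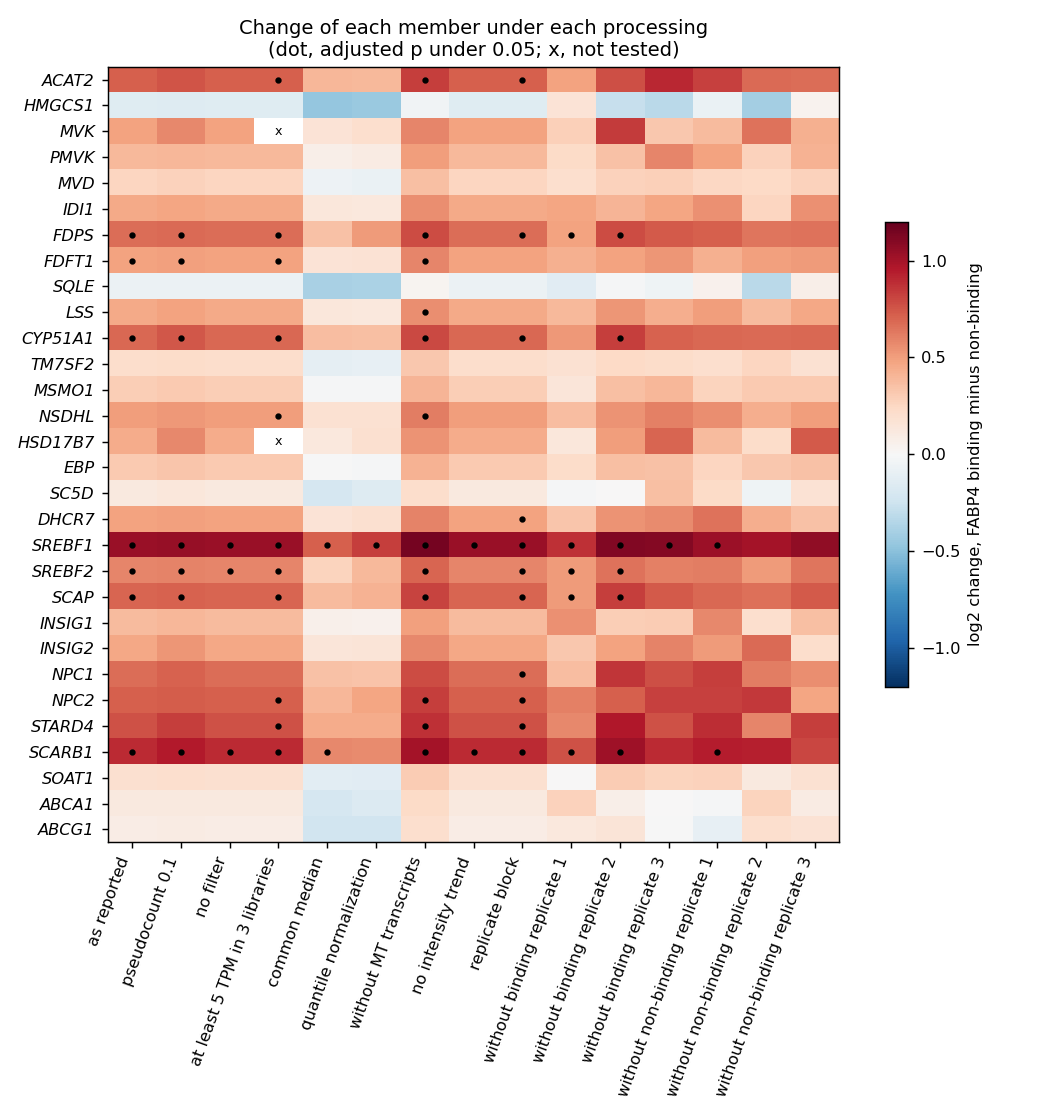
Log2 change (FABP4 binding minus non-binding) of the members as reported and under the 14 alternatives, coloured from blue (lower) to red (higher), with dots for adjusted p under 0.05 and x where a member was not tested. SREBF1 is called in 12 of the 14 alternatives and SCARB1 in 10, and no member is called without non-binding replicate 2 or without non-binding replicate 3. Members with the smallest changes, among them ABCA1, ABCG1, SQLE and HMGCS1, change sign between settings.

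Genes next to the members in the same pathways were counted from lists of known pathway genes, drawn up with earlier results of these data known. Of 14 genes of SREBP processing and turnover 3 rose (21.4%, beside 19.6% of all genes) and none fell. C12orf49, also known as SPRING1, which the SREBP-cutting site-1 protease needs, averaged 18.1 ± 4.74 TPM in binding cells and 9.91 ± 0.0481 TPM in non-binding cells (SD, n = 3 each, log2 change 0.78, limma adjusted p = 0.0322). SEC23A, a coat protein of the vesicles that carry SCAP, averaged 49.99 ± 9.04 TPM in binding cells and 29.9 ± 2.34 TPM in non-binding cells (SD, n = 3 each, log2 change 0.71, limma adjusted p = 0.0249), and SEC24D of the same coat also rose (log2 change 0.73, adjusted p = 0.0396). The median log2 change of this list was 0.23, below the 0.36 of all genes. Under a common median none of its genes rose and 3 fell (MBTPS2, ERLIN1 and AUP1), beside 6.18% of all genes higher and 12.1% lower.

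The isoprenoid branches, which use farnesyl diphosphate for prenyl groups, dolichol and ubiquinone, had 2 of 14 tested genes higher (14.3%, beside 19.6% of all genes) and none lower. These were GGPS1, which makes geranylgeranyl diphosphate, at 18.8 ± 2.30 TPM in binding cells and 12.1 ± 0.946 TPM in non-binding cells (SD, n = 3 each, limma adjusted p = 0.0369), and DHDDS of dolichol synthesis, at 9.59 ± 3.66 TPM in binding cells and 4.17 ± 0.627 TPM in non-binding cells (SD, n = 3 each, limma adjusted p = 0.0356). Neither passed under a common median, and IDI2 was under the filter.

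Of 19 further genes of sterol transport and turnover 3 rose (15.8%, beside 19.6% of all genes) and 1 fell (5.26%, beside 7.12%). Under a common median 1 rose (GRAMD1A) and 2 fell (OSBP and OSBPL9), beside 6.18% of all genes higher and 12.1% lower. GRAMD1A, which carries plasma membrane cholesterol inward, averaged 34.3 ± 6.43 TPM in binding cells and 17.8 ± 1.38 TPM in non-binding cells (SD, n = 3 each, log2 change 0.90, limma adjusted p = 0.0178). NCEH1, a hydrolase of cholesterol esters (log2 change 0.92, limma adjusted p = 0.0370), and STARD3, a late endosomal sterol carrier (0.60, adjusted p = 0.0361), also rose. OSBPL9, a lipid transfer protein of the oxysterol-binding family, fell to 30.6 ± 1.67 TPM in binding cells, against 42.6 ± 1.51 TPM in non-binding cells (SD, n = 3 each, log2 change -0.46, limma adjusted p = 0.0388).

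Among 10 tested genes of the liver X receptors, their targets and oxysterol enzymes 2 rose (20%, beside 19.6% of all genes) and none fell, and the 2 were the receptors themselves. NR1H2 had 64.0, 55.7 and 61.5 TPM in binding libraries, against 40.0, 28.8 and 33.6 TPM in non-binding libraries (log2 change 0.81 ± 0.16, SE, limma adjusted p = 0.0174). NR1H3 averaged 19.1 ± 1.29 TPM in binding cells and 12.1 ± 2.47 TPM in non-binding cells (SD, n = 3 each, limma adjusted p = 0.0432). Liver X receptors are known to activate ABCA1, ABCG1 and SREBF1, of which SREBF1 alone passed the threshold here. Under a common median NR1H2 stayed higher, NR1H3 did not pass, and SULT2B1 and SMPDL3A were lower. In that setting 6.18% of all genes were higher and 12.1% lower. ABCG4, CH25H, CYP46A1 and CYP7B1 were under the filter. With non-binding replicate 2 or non-binding replicate 3 left out, the 4 lists had no gene past the threshold, beside 1.8% and 0.372% of all genes higher.

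Genes that lie over members could share reads with them. In GENCODE release 29, AC000120.2 shares 2844 exon bases with CYP51A1 on the same strand, and AC000120.3 shares 99, so strand would not tell them apart from CYP51A1. SOD2 and SOD2-OT1 share 1141 and 1458 exon bases with ACAT2 on the opposite strand. These entries had no matching identifier among those analysed here, so no level is given for them. RAI1, opposite SREBF1, shares 556 exon bases with it and averaged 20.4 TPM in binding cells and 11.3 TPM in non-binding cells, well below SREBF1 in both groups. MMAB shares 306 exon bases with MVK on the opposite strand and averaged 9.23 TPM in binding cells and 5.11 TPM in non-binding cells, above MVK itself. ISCA2 shares 103 with NPC2 and averaged 45.3 TPM in binding cells and 63.6 TPM in non-binding cells, and RMC1 shares 604 with NPC1 and averaged 16.7 TPM in binding cells and 13.0 TPM in non-binding cells. ISCA2, like TCP1 opposite ACAT2, was lower on average in binding cells while its partner was higher. RAI1, MMAB and RMC1 were higher on average in binding cells, as were their partners. Whether reads were shared was not tested. VPS51 shares 16 exon bases with TM7SF2 on the same strand and averaged 49.96 TPM in binding cells and 49.6 TPM in non-binding cells. AP002387.1, which lies over DHCR7 without sharing exon bases, averaged 9.22 TPM in binding cells and 4.09 TPM in non-binding cells, and RAP1AP over NPC2 averaged 2.83 TPM in binding cells and 7.74 TPM in non-binding cells. SREBF2-AS1, RUSC1-AS1 over FDPS, AC069185.1 over FDFT1 and AL359182.1 over ABCA1 each averaged under 3 TPM in both groups.

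Library differences ran alongside these results. The summed TPM of the 30 members was 966, 771 and 778 in binding libraries, against 609, 555 and 583 in non-binding libraries, a ratio of 1.44 that was 1.33 without binding replicate 1. Binding replicate 1 was the highest binding library for 25 of the 30 members (83.3%) and for 56.5% of all genes, and it was the lowest for 4 members (HMGCS1, IDI1, INSIG1 and ABCA1). Its correlation with the non-binding libraries across genes was 0.895 to 0.912, below the 0.932 to 0.950 of the other binding libraries. Binding replicate 1 also stood apart within its own group. It correlated at 0.951 with binding replicate 2 and 0.953 with binding replicate 3, below the 0.970 between those replicates. Without it 5 members stayed past the threshold (FDPS, SREBF1, SREBF2, SCAP and SCARB1), beside 12.7% of all genes higher. Mitochondrial transcripts took 9.99% to 11.2% of TPM in binding libraries and 2.98% to 3.38% in non-binding libraries, and when they were left out and the rest rescaled, 12 members passed, beside 28.4% of all genes higher.

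Markers of the line were present. They summed to 2629 to 2802 TPM over 9 genes in binding libraries and 2064 to 2165 TPM in non-binding libraries. Of these 9 genes 6 rose (66.7%, beside 19.6% of all genes) and none fell. Under a common median 5 were higher and 1 was lower (MSN), beside 6.18% of all genes higher and 12.1% lower. The oestrogen receptor gene ESR1 was at 0 in every library. ERBB2, PGR, GATA3, FOXA1 and ESR1, expected to be low in this line, summed to 25.3 to 35.0 TPM in binding libraries and 26.7 to 28.4 TPM in non-binding libraries. The 14 epidermal keratinocyte markers, among them KRT1, KRT10 and KRT14, summed to 1801 to 3388 TPM in binding libraries and 4067 to 5760 TPM in non-binding libraries. Of these markers 9 of 14 fell (64.3%, beside 7.12% of all genes), none rose and none was at 0 throughout. What the line markers or the keratinocyte markers have to do with the results for the members and for the pathway lists was not tested. Leukocyte, fibroblast, endothelial and adipocyte markers summed to at most 64.3 TPM per list in any library, and the adipocyte genes ADIPOQ and LEP were at 0 throughout.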

How the data were processed

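RNA sequencing of 6 sorted libraries was analysed, 3 of FABP4 binding and 3 of FABP4 non-binding MDA-MB-231 cells. The authors deposited TPM: every column adds up to 1000000, over all 58051 genes. The submitters' processing notes name hg38 as the build. Which aligner, counting tool and annotation they used, whether strand was used, and the read depth: not given in the sources used here. Because TPM have a fixed total, an abundant class of transcripts depresses the other values.

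The filter asked for 1 TPM or more in 3 or more libraries and left 15574 genes. Their log2(TPM + 1) values went into limma 3.58.1 (R 4.3.3) with group as the single term and a trend of variance on intensity, and p-values were adjusted by Benjamini-Hochberg over these genes, with 0.05 as the threshold. Fold changes on this scale understate the change of low genes. The script was tested on simulated data. For ratios of 2 members within a library, group labels were permuted exactly, two-sided.

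All 30 members are named whatever they showed. Genes outside them are named when past the threshold, when under the filter, or as pseudogenes or overlapping genes with a mean of at least 1 TPM in either group. One gene of the list on SREBP processing is not reported here. Members and lists were chosen with earlier results of these data known. Of the gene identifiers 98.96% were in GENCODE release 29, which gave coordinates and overlaps and may not be the submitters' annotation. Promoter and microRNA sequences are from RefSeq GRCh38.p14, and ACAT2, FDFT1, SQLE, SCARB1 and ABCG1 had no promoter entry. Printed stretches were kept upstream of exons and at 100 bases or more.

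Alternatives were a pseudocount of 0.1, no filter, a filter of 5 TPM, a common median, quantile normalization, rescaling without mitochondrial transcripts, no intensity trend, a replicate block, and each library left out in turn. Replicate numbers are shared between the groups, but nothing in the labels says what they mark.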

Additional observations from a re-analysis of the deposited data

How the results depend on the processing

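Counts of calls depended on the setting. The 4156 genes past the threshold became 1873 with no filter, 2852 with a common median and 2443 with quantile normalization. With no intensity trend there were 2559, and with 1 library left out 64 to 2863. The count rose to 4646 with a filter of 5 TPM and to 5290 when rescaled without mitochondrial transcripts. The 7 members past the threshold became 3 with no filter, 2 with a common median and 1 with quantile normalization. With no intensity trend 2 passed, and with 1 library left out 0 to 6. With a filter of 5 TPM 11 of the 28 tested members passed. When rescaled without mitochondrial transcripts 12 of 30 passed, beside 28.4% of all genes higher. The share of all genes higher is not given here for no filter, the filter of 5 TPM or no intensity trend. It is also not given for the replicate block or without binding replicate 2. Member counts in those settings therefore have no background to be read against. No setting called a member lower. A pseudocount of 0.1 called the same 7. The members' median log2 change of 0.46 became 0.14 with a common median and 0.16 with quantile normalization.

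With the replicate number as a block, 4306 genes and 11 members passed, 6 of them shared with the 7 above. Over all genes tested, deviations of same-numbered libraries correlated at 0.035, -0.017 and 0.028. Those of different-numbered libraries lay between -0.074 and 0.062. With 3 libraries per group this does not settle whether the numbers mark pairs. The labels do not say, and the reported fit did not treat them as pairs. These correlations were not computed for the members alone. Replicate 1 was the highest library of its group for 25 members in binding cells and 13 in non-binding cells. Replicate 2 was the lowest for 15 members in binding cells and 17 in non-binding cells. Whether the members follow a pairing of the libraries was not tested.

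Signs turned for members with no call. With a common median the log2 changes were -0.063 for MVD, -0.10 for TM7SF2, -0.019 for MSMO1, -0.0056 for EBP, -0.20 for SC5D, -0.12 for SOAT1, -0.20 for ABCA1 and -0.23 for ABCG1. With quantile normalization they were -0.078 for MVD, -0.10 for TM7SF2, -0.0098 for MSMO1, -0.016 for EBP, -0.15 for SC5D, -0.13 for SOAT1, -0.17 for ABCA1 and -0.23 for ABCG1. SQLE stood at 0.036 when rescaled without mitochondrial transcripts. With one library left out the changes ran from -0.41 to 0.16 for HMGCS1, from -0.052 to 0.36 for SC5D, from -0.10 to 0.20 for ABCG1, from -0.32 to 0.069 for SQLE and from -0.013 to 0.28 for ABCA1. Leaving out a library also leaves fewer samples. For the other changes the cause was not tested. TPM keep no depth, so what depth limits is unknown.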
